A study of Drosophila melanogaster with 7 samples.

Results

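The slow unstalled forks were replication tracks of untreated Drosophila S2 cells that kept a low stall score and yet were short for their labelling time. A fork was a member when it lay on 2L, 2R, 3L, 3R, 4 or X, when both ends of its track lay at least 5 kb inside its read, when its stall score was from 0 to under 0.5, and when its track length divided by the total labelling time was under 500 bp per min. Of 30828 deposited forks in 5 untreated libraries, 30573 lay on these 6 arms, 13325 of those were complete, 7347 were complete and unstalled, and 1639 were members. The other 5708 complete unstalled forks are the comparison throughout. The members were thus chosen by track length and stall score, so the values of these and of the segments that make up the track are a description with no test.

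Replication forks move in both directions from an origin until they meet a converging fork at a termination. Each fork copies one template continuously, on the leading strand, and the other in short pieces, on the lagging strand. Thymidine analogues given one after the other mark the path of a fork on a single DNA molecule, so that the length of the marked track over the pulse time estimates fork speed, and a track can also be short because its fork began or ended during the pulses.

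S2 is a cell line derived from Drosophila melanogaster embryos. The cells received 10 µM EdU, then 10 µM BrdU, then a chase of 20 min in 50 µM thymidine, and their long DNA was sequenced on Nanopore instruments. The control library (MinION) and replicates 1 and 2 (PromethION) had 7 min of EdU and 15 min of BrdU, and replicates 3 and 4 (PromethION) had 3 min and 6 min. A further library had 1 mM HU, the usual abbreviation of hydroxyurea, in the BrdU medium with the 7 and 15 min pulses, and a BrdU gradient library was not used here. Pairs of flasks labelled together were combined before extraction. Nothing in the labels says whether replicates came from separate cultures, so the p-values speak for these libraries alone, and differences between them may be technical. A sign-flip p at its smallest value shows only that the differences share a sign. The batch label differed between the control, replicates 1 and 2, and replicates 3 and 4, so batch and pulse length cannot be told apart, and slow forks were compared with other forks inside each library. No read with a fork occurred in more than 1 library (0 reads).

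Among unstalled forks, the slow class was large with the long pulses and nearly empty with the short ones. In the control 160 of 523 complete unstalled forks were slow, or 30.6% (95% Wilson interval 26.8 to 34.7). Replicate 1 held 682 of 2808, or 24.3% (22.7 to 25.9), and replicate 2 held 789 of 3415, or 23.1% (21.7 to 24.5). These 3 libraries gave 1631 of the 1639 members, and the control lay above both replicates. Replicate 3 had 2 slow forks of 207 (0.966%, interval 0.265 to 3.45) and replicate 4 had 6 of 394 (1.52%, interval 0.700 to 3.28). The intervals cover counting error only. The difference of the short from the long scheme was -22.5 percentage points between 2 replicates each, given as a description because the rule sets this share. One threshold in bp per min stands for a track of 11 kb in 22 min and of 4.5 kb in 9 min. The median rate of all complete unstalled forks was 684, 727 and 757 bp per min in the control and replicates 1 and 2. In replicates 3 and 4 it was 1399 and 1197, so the whole distribution lay higher above the same threshold. Of the forks on the arms, 51.7, 47.4 and 46.1% were complete in the control and replicates 1 and 2. In replicates 3 and 4, 18.1 and 39.7% were complete. The headers of the fork tables mark blocks by detection file, and what sets these apart is not stated. The share ran from 18.5 to 34.4% over the 14 blocks of replicate 1 and from 18.8 to 26.1% over the 11 of replicate 2. It was 29.1 and 32.2% in the 2 of the control. These ranges include counting error, and the spread between blocks was not tested.

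**Figure D1:**
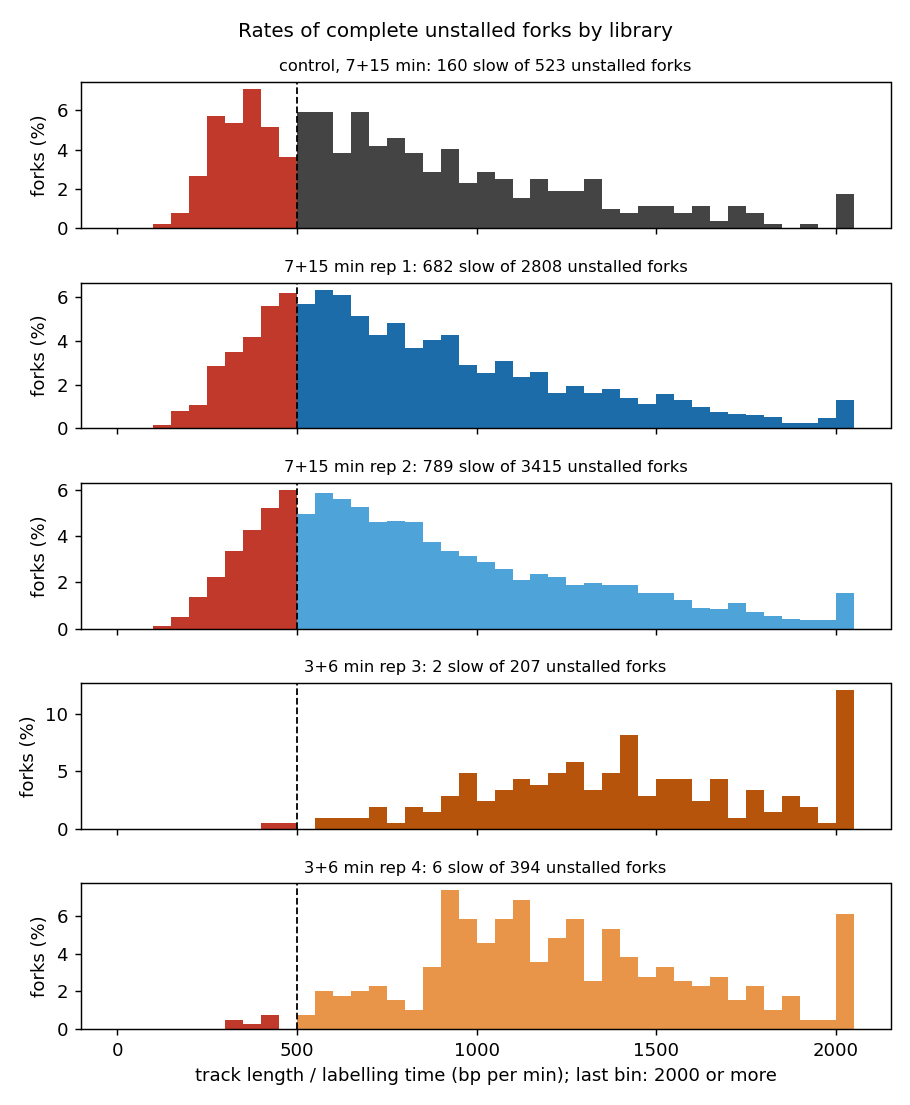
Histograms of fork rate (track length over labelling time, bp per min) for the complete unstalled forks of each library, as percent of forks per bin of 50 bp per min. Red bins left of the dashed line at 500 are the slow forks, which form the low flank of one continuous distribution in the 3 libraries with 7 and 15 min pulses and are nearly missing in the other two.

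No break in the distribution set the slow forks apart. Just inside the threshold, from 450 to 500 bp per min, there were 397 forks with a median track of 10.5 kb, and just outside it, from 500 to 550, there were 359 with a median of 11.5 kb. Only 10 members ran under 150 bp per min. A low rate was not a property of unstalled forks alone: of 3694 complete forks under 500 bp per min, 1639 had a score under 0.5, 502 had a score of 0.5 or more and 1553 had no score. Among complete stalled forks the slow share was 31.2% in the control, 28.2% in replicate 1 and 25.1% in replicate 2. Among those without a score it was 50.9%, 48.0% and 45.0%, above the scored classes in each of the 3 libraries. In replicates 3 and 4 the slow share was 2 of 53 (3.77%) and 28 of 403 (6.95%) of complete stalled forks. It was 27 of 282 (9.57%) and 28 of 281 (9.96%) of complete forks without a score. The unstalled class had the lowest slow share of the 3 score classes there, at 0.966 and 1.52%. The members' median stall scores were 0.171, 0.136 and 0.124 in the control and replicates 1 and 2, beside 0.167, 0.130 and 0.135 for the other unstalled forks.

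The tracks of members were shorter in both analogues, and more so in the second. The median track of a member was 7.76 kb in the control, 8.72 kb in replicate 1 and 8.74 kb in replicate 2, against 18.9, 19.2 and 19.5 kb for the other forks. The EdU segment, the first label, had medians of 3.44, 3.42 and 3.61 kb against 6.80, 6.74 and 7.35 kb. The BrdU segment, the second label, had medians of 2.69, 3.31 and 3.15 kb against 10.3, 10.6 and 10.6 kb. The median EdU segment of members was thus longer than their median BrdU segment in all 3 libraries, although the BrdU pulse lasted 15 min and the EdU pulse 7 min. Per minute of pulse, the EdU segment of a member ran at a median of 0.491, 0.488 and 0.516 kb per min and the BrdU segment at 0.179, 0.221 and 0.210 kb per min. The median ratio of the BrdU to the EdU value was 0.351, 0.460 and 0.3998 in members and 0.696, 0.713 and 0.678 in other unstalled forks. An unlabelled gap between the segments added a median of 1.21, 1.40 and 1.34 kb to a member's track. No member had a BrdU segment under 1.00 kb or an EdU segment under 0.502 kb.

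**Figure D2:**
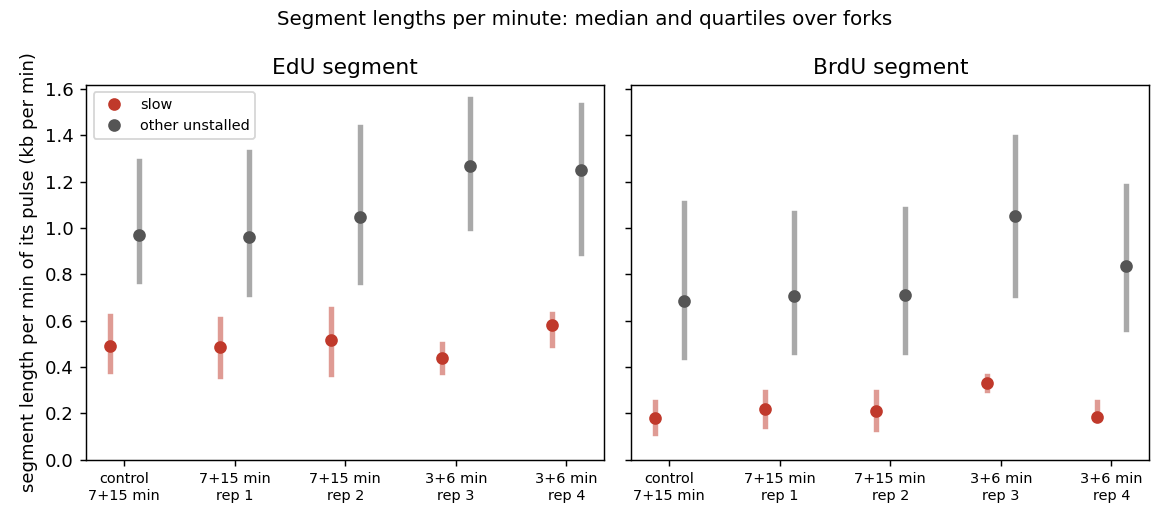
Segment length per minute of its own pulse (kb per min) for the EdU and the BrdU segment in each library, with points at the median and bars over the quartiles of forks. Slow forks (red) lie below the other unstalled forks (grey) in both segments, and in the libraries with 7 and 15 min pulses their BrdU medians (0.179 to 0.221) lie below their EdU medians (0.488 to 0.516).

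The members can be divided by the same cut of 500 bp per min on each segment, as a description. No member could have both segments at or above it, because such a track would reach the threshold of the rule. The EdU values of all members had a median of 0.504 kb per min and quartiles of 0.366 and 0.627. The cut thus ran through the middle of 1 spread and does not mark separate kinds. In 786 members both segments ran under 500 bp per min, and in 838 only the BrdU segment did. Tracks slow in EdU alone numbered 15, none of them in the control. Forks slow in both pulses made up 52.5% of the members of the control, 51.2% of replicate 1 and 44.4% of replicate 2. Among the other unstalled forks, 27.4 to 32.2% per library of the 3 had a BrdU segment alone under that rate, and 0.275 to 1.55% had both.

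Slow forks kept company on their molecules. A molecule here is 1 read, and 247 members had at least 1 other complete fork, of any score, on the same read. For each fork the share of its partners that were slow was taken, and these shares were averaged over forks. In the control the mean share was 70.8% over 24 members, against 18.3% over 60 other unstalled forks. Replicate 1 gave 72.2% over 105 members against 17.8% over 258 other forks. Replicate 2 gave 70.5% over 117 members against 16.7% over 318. The 3 differences lay close together, at 52.5, 54.4 and 53.8 percentage points, a mean of 53.6 ± 0.967 (SD, n = 3 libraries). An exact sign-flip test over these libraries gave p = 0.25, the smallest that 3 can give. With the 1 such member of replicate 4 included, the mean was 52.4 ± 2.36 over 4 libraries, higher in 4 of 4, with an exact p of 0.125, again the smallest possible, and 0.25 after Benjamini-Hochberg adjustment over 14 paired measures. No test over these libraries can reach 0.05. A pair in which both forks were unstalled entered once from each side, so the forks counted are not independent of each other. Partners were judged by the end margin, rate and threshold of the rule, and a slow unstalled partner is itself a member. At their smallest value the p-values show only that the libraries share a sign, and they are no support apart from the rule.

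The partner's rate, taken without a threshold on it, restates this contrast on the measure of the rule. The pairs were still split at 500 bp per min, and beside members the partner was slow in 230 of 313 pairs. Over the pooled long-pulse libraries, the other complete fork ran at a median of 0.403 kb per min beside a member (313 pairs) and at 0.759 kb per min beside another unstalled fork (762 pairs). By library the partner medians were 0.369, 0.415 and 0.398 kb per min beside members of the control and replicates 1 and 2, against 0.772, 0.753 and 0.758. The partner of a member was short in both labels, with a pooled median of 0.486 kb per min in EdU and 0.256 kb per min in BrdU, against 0.827 and 0.596.

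**Figure D3:**
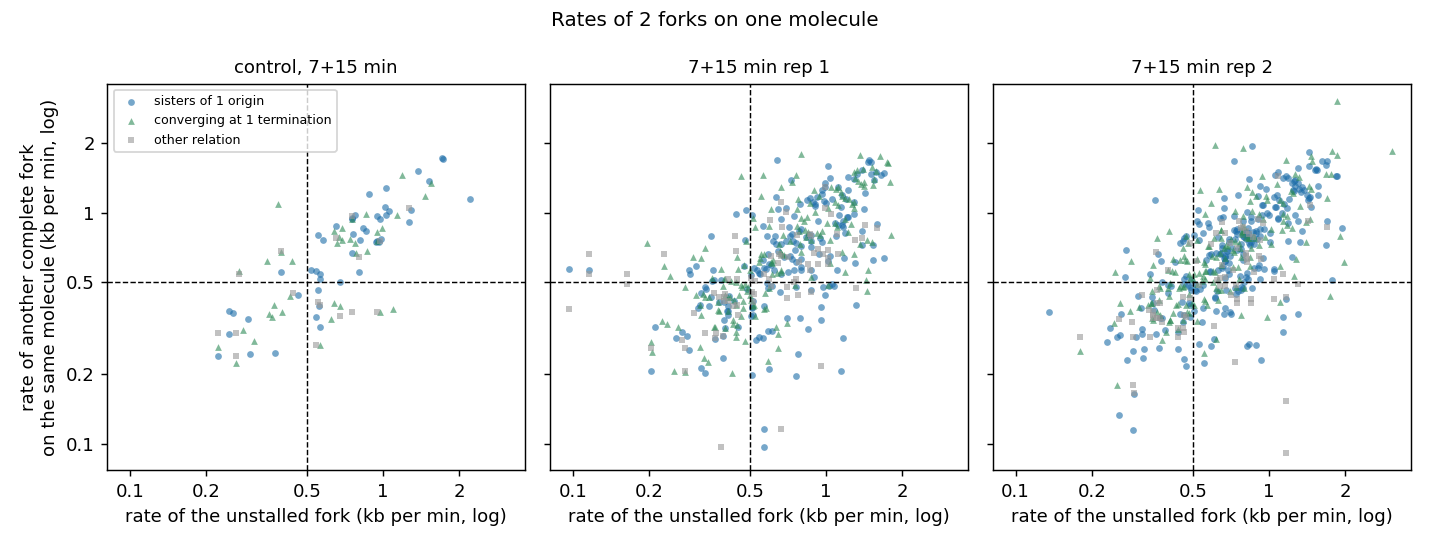
Rate of a complete unstalled fork (x axis) against the rate of another complete fork on the same molecule (y axis), both in kb per min on log axes, for the 3 libraries with 7 and 15 min pulses (circles, sister forks of 1 origin call, triangles, forks that meet at 1 termination call, squares, other pairs, dashed lines, 0.5 kb per min). Each library holds more points with both forks under 0.5 than with a slow fork on the x axis and a partner above it (partners slow in 72.4, 72.3 and 74.8% of the pairs of members).

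The same contrast appeared for sister forks, for converging forks and for forks that ran the same way. Sister forks leave 1 origin in opposite directions, and in the pooled long-pulse libraries the sister of a member was slow in 82 of 112 pairs (73.2%), against 77 of 388 (19.9%) for the sister of another unstalled fork. Where the origin call had zero width, so that the sisters' EdU segments met, the shares were 75.9% and 22.2%. Where the origin call had a gap, they were 70.4% and 17.6%. Sisters of a zero-width origin both began during the EdU pulse, so 1 event shortened both tracks. The sister's pooled EdU median at such origins was 0.196 kb per min beside members and 0.502 beside other forks. Converging forks, which meet at 1 termination call, were slow in 96 of 136 pairs beside a member (70.6%) and in 41 of 265 (15.5%) otherwise. A meeting during the pulses likewise ends both tracks. How far a shared origin or termination sets these shares was not tested. For forks that ran in the same direction on a molecule, and so belong to different origins, the shares were 81.8% of 55 pairs and 27.8% of 97. Over pairs with neither an origin nor a termination call in common, the difference was 12.1 percentage points in the control, where the members had 6 such pairs, 49.5 in replicate 1 and 58.0 in replicate 2.

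In the pooled long-pulse libraries the partners of members and of other forks were both slow more often in close pairs. For midpoints under 20 kb apart the partner of a member was slow in 84.5% of 148 pairs and the partner of another fork in 37.3% of 153. Between 20 and 50 kb these shares were 67.6% of 139 and 17.2% of 406, and from 50 kb they were 42.3% of 26 and 11.8% of 203. The libraries were uneven: beside members the 3 classes of distance gave 94.1, 37.5 and 50.0% in the control, where the farther classes held 8 and 4 pairs, 84.4, 69.5 and 28.6% in replicate 1, and 82.1, 69.4 and 62.5% in replicate 2. At 20 to 50 kb the control had 37.5% beside members against 27.8% beside other forks. Short tracks bring midpoints closer, so distance is not independent of the rule. Read length moved with the slow class, as given further on, and on reads of 100 kb or more the shares were 72.0% of 125 pairs and 14.4% of 480.

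The 1639 members lay on 1572 molecules, of which 1509 carried 1 member, 59 carried 2 and 4 carried 3. In replicate 1, a read of 166 kb on X (chrX:13582819-13748582, dm6) carried 3 forks, with rates of 0.451, 0.320 and 0.361 kb per min. Another X read, of 89.7 kb in replicate 2 (chrX:7869293-7959036), also carried 3, with rates of 0.290, 0.251 and 0.180 kb per min. Each of these reads held 1 origin and 1 termination call. A read of 112 kb of replicate 2 near the centromeric end of 3L (chr3L:26468279-26580266) carried 5 forks, 3 of them members with rates of 0.350, 0.372 and 0.360 kb per min. The fourth molecule, a read of 51.3 kb in replicate 1 (chr2R:3287854-3339172), had rates of 0.431, 0.345 and 0.396 kb per min. All 4 were picked after their values were seen.

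Forks at the same place in other libraries showed no such contrast beyond its spread. For forks whose midpoints lay within 10 kb of each other in different libraries, the neighbour of a member was slow in 23.7% for the control, 14.8% for replicate 1 and 13.9% for replicate 2, averaged over the partner libraries, short pulses included, that gave 20 or more pairs. For the neighbours of other unstalled forks these values were 21.9%, 10.99% and 14.8%. The short-pulse partners of the control gave 2 and 14 pairs beside members and were left out, so its value averages other partners. For replicates 1 and 2 they stayed in, with 0 to 5.13% slow beside members and 0 to 2.22% beside other forks. These lowered both averages and bound the difference. The mean difference was 1.53 percentage points ± 2.35 (SD, n = 3), higher in 2 of 3 libraries, with an exact sign-flip p of 0.5. The direction turned when neighbours were limited to 5 kb, at -2.27 points. In the largest single comparison, replicate 1 against replicate 2, the neighbour was slow for 102 of 453 pairs beside a member (22.5%) and for 297 of 1387 beside another fork (21.4%).

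Members fell into 1512 tiles of 10 kb, of which 1439 had members of 1 library, 73 had members of 2 and none had members of 3, and no tile held 4 or more. For scale, the complete unstalled forks of all rates fell into 5354 tiles, of which 1079 had forks of 2 or more libraries, so that most tiles could not show members of more than 1 library. Of the tiles with members of 2 libraries, 4 held 3 slow forks each, out of 4, 4, 4 and 3 complete unstalled forks there. They were chr2L:1940001-1950000 beside Wdr62, a gene for a spindle pole protein, chr3L:2870001-2880000 in Tet, of the Tet dioxygenase family, chr3L:7010001-7020000 in Mp, which encodes the collagen Multiplexin, and chr3R:4740001-4750000 in tacc, a gene for a microtubule-associated protein of the centrosome. Rates there were 0.392 to 0.495 kb per min at Wdr62, 0.293 to 0.434 at Tet, 0.278 to 0.420 at Mp and 0.408 to 0.429 at tacc. The next 6 by rule, all on 2L with 1 slow fork in each of replicates 1 and 2, had their mean midpoint in kis, a chromatin remodeller of the CHD family, ed, a cell adhesion molecule, smog, a G protein-coupled receptor, and l(2)k09022, or nearest to CG14342, 3050 bp away, and mid, a T-box transcription factor gene 9029 bp away. Every unstalled fork in those 6 tiles was slow, 2 in each. These tiles are a list by count and no test was made of them.

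Slow forks of the 3 long-pulse libraries were read more often from the leading strand. A Nanopore read is one strand, and its nascent strand was taken as leading for rightward forks on forward reads and for leftward forks on reverse reads. In the control 84.4% of 160 members were leading, against 65.0% of 363 other forks. Replicate 1 had 79.5% of 682 against 73.8% of 2126, and replicate 2 had 76.6% of 789 against 65.5% of 2626. Members lay higher in each of these 3 libraries, by 12.0 percentage points ± 6.92 (SD, n = 3), with an exact sign-flip p of 0.25, the smallest possible. Replicates 3 and 4 went the other way on very few forks, with 0 of 2 and 3 of 6 members leading, against 65.9 and 59.3%, which brought the mean over 5 libraries to -7.82 ± 34.1 points (exact p = 0.875, adjusted 1). Seen from the strand, 36.4% of leading and 16.4% of lagging forks were slow in the control, 25.7% and 20.1% in replicate 1, and 26.0% and 17.0% in replicate 2. The share did not step at the threshold, with 79.8% leading just inside it and 78.8% just outside it.

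Leading-strand shares were also higher on shorter reads, and the strand difference within classes of read length was uneven. In the pooled long-pulse libraries members and other forks were leading in 86.0% and 83.3% on reads under 30 kb, 84.8% and 79.3% from 30 to 50 kb, 75.6% and 70.7% from 50 to 75 kb, 71.4% and 67.3% from 75 to 100 kb, and 72.6% and 62.6% from 100 kb. By library the order turned under 30 kb in the control (93.8 against 100%) and replicate 1 (87.3 against 92.9%), and at 50 to 75 kb in replicate 1 (76.2 against 76.6%). On reads of 100 kb or more the difference was 15.0 points ± 14.2 (SD, n = 3), with 88.2 against 57.4% in the control, 69.5 against 66.3% in replicate 1 and 71.1 against 60.2% in replicate 2. Direction on the map differed little: 48.1, 47.7 and 48.3% of members of the control and replicates 1 and 2 ran leftward, against 51.0, 49.0 and 51.0% of other forks. Over 5 libraries this was -2.01 points ± 0.805, lower in 5 of 5, with an exact sign-flip p of 0.062 and an adjusted p of 0.175. The signs of replicates 3 and 4 rest on 1 of 2 and 3 of 6 members. Over the 3 long-pulse libraries alone the exact sign-flip p was 0.25, the smallest possible.

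Forks on the X chromosome were slow more often than those on the autosomes in the 3 long-pulse libraries. In the control 18 of 44 complete unstalled forks on X were slow (40.9%), against 142 of 479 on the autosomes (29.6%). Replicate 1 had 77 of 256 (30.1%) against 605 of 2552 (23.7%), and replicate 2 had 101 of 331 (30.5%) against 688 of 3084 (22.3%). X was higher in 3 of 3 libraries, by 8.61 percentage points ± 2.47 (SD, n = 3), with an exact sign-flip p of 0.25, the smallest possible. In replicates 3 and 4, with 1 slow fork of 19 and 0 of 36 on X, the differences were 4.73 and -1.68 points. Put as a share of the class, X held 11.3, 11.3 and 12.8% of the members of the control and replicates 1 and 2, against 7.16, 8.42 and 8.76% of the other forks. Over 5 libraries the X share of members was higher by 8.59 points ± 19.1, in 4 of 5, with an exact p of 0.5 and an adjusted p of 0.7. That mean fell to 1.41 ± 7.11 with slow forks under 400 bp per min (higher in 3 of 4) and to 1.26 ± 3.34 with the lowest rate quartile of each library (higher in 3 of 5).

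Median reads with forks on X (74.2, 77.0 and 69.3 kb) lay near those on the autosomes (80.8, 73.8 and 72.1 kb), and on reads of 100 kb or more the X share of members was higher by 6.06 points ± 3.85 (SD, n = 3). The 4 large autosomal arms had like slow shares, at 22.6 to 24.2% over the pooled long-pulse libraries, with 2L and 3L at 33.6 and 34.8% in the control alone. X stood at 31.1% (interval 27.6 to 34.8) and chromosome 4, which is small and largely heterochromatic, at 17 of 55 forks or 30.9% (20.3 to 44.0). The share on chromosome 4 was 18.5% in replicate 1 and 44.0% in replicate 2, too few forks to place it against the other arms. In the control the median rate on X was 0.658 kb per min. It lay above those of 2L and 3L (0.646 and 0.635) and below those of 2R and 3R (0.734 and 0.717).

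**Figure D4:**
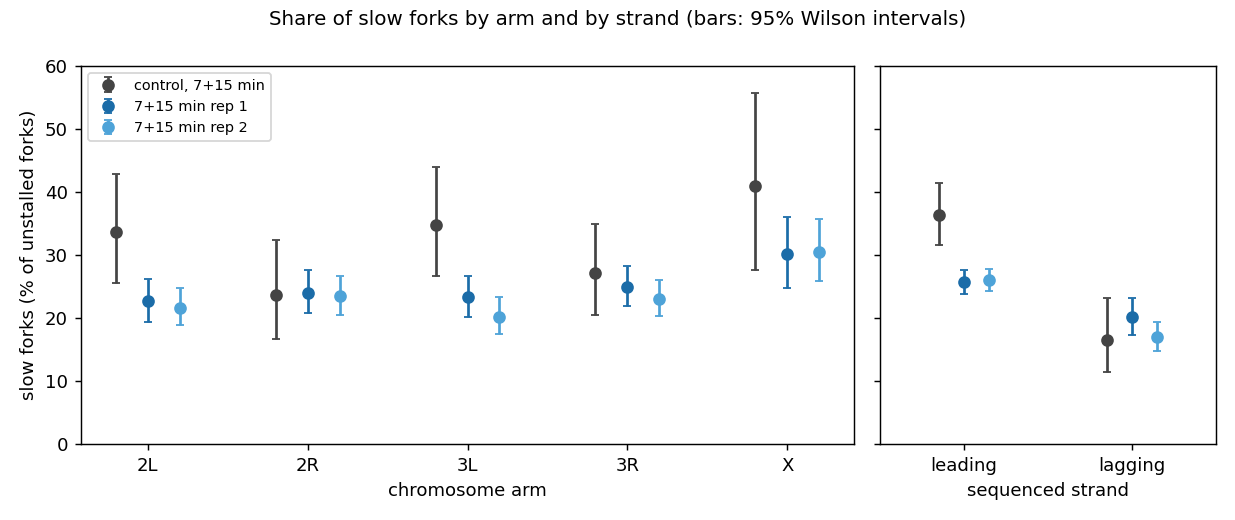
Slow forks as percent of complete unstalled forks by chromosome arm (left) and by sequenced strand (right) in the 3 libraries with 7 and 15 min pulses, with 95% Wilson intervals and chromosome 4 not drawn. Of the arms drawn, X lies highest in each library (40.9, 30.1 and 30.5%), and leading-strand forks lie above lagging-strand forks in each (for example 36.4 against 16.4% in the control). In the control the interval of X (27.7 to 55.6, 44 forks) covers the values of 2L and 3L (33.6 and 34.8%).

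The regions beside the centromeres held 6.25, 11.4 and 9.25% of the members of the control and replicates 1 and 2, against 13.8, 11.5 and 10.3% of other forks. Their difference was -2.89 points ± 4.04 (SD, n = 3), smaller than its spread. Gene density did not separate the classes: the median window of 100 kb around a midpoint held 11, 10 and 11 protein-coding genes in the control and replicates 1 and 2, for members and other forks alike. Midpoints lay inside a protein-coding gene for 71.3, 68.3 and 69.8% of members against 64.5, 65.5 and 66.8% of other forks, higher in 3 of 3 long-pulse libraries, as a description made after the values were seen.

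Few members touched an origin or termination call. A termination lay within 1 kb of the BrdU end, the front of the track, in 12.5% of members of the control, 11.9% of replicate 1 and 9.76% of replicate 2. In other forks it did so in 10.7%, 7.57% and 7.27%. Members were higher in all 3, by 2.85 points ± 1.31 (SD, n = 3; exact sign-flip p = 0.25, the smallest possible), and the 5-library mean was 1.94 ± 6.46 (exact p = 0.5, adjusted 0.7). On reads of 100 kb or more the difference was 11.1 points ± 9.32. An origin lay within 1 kb of the EdU end, where the track begins, in 9.38, 10.3 and 13.2% of members against 15.7, 12.8 and 13.6% of other forks. Members were lower in these 3 libraries, by 3.12 points (-3.12 ± 2.98, SD, n = 3, about the size of its spread), and the 5-library mean had the other sign, at 4.10 ± 15.2 (exact p = 1).

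A further BrdU segment beyond the BrdU end, within 5 kb and outside the track, was rare but more frequent in members of the 3 long-pulse libraries. It followed 3 of 160 members of the control (1.88%), 11 of 682 of replicate 1 (1.61%) and 16 of 789 of replicate 2 (2.03%). Among other forks it followed 0.275%, 0.517% and 0.609%. In replicates 3 and 4 it followed 0 of 2 and 0 of 6 members, against 4 of 205 (1.95%) and 4 of 388 (1.03%) other forks. This measure was chosen after the data were seen and was not tested.

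Members lay on shorter reads in every library. Their median read was 64.8, 54.2 and 55.6 kb in the control and replicates 1 and 2, against 85.4, 78.9 and 75.9 kb for other forks. The rule used the read ends as well as the track length, so this is a description. A complete track needs 5 kb of read at each end, and a read under 30 kb can hold only tracks under 20 kb. Read length was still among the 14 measures of the Benjamini-Hochberg adjustment, with an exact sign-flip p of 0.062. That p carries no support, because the rule bears on its outcome, and the adjusted values of the other measures depend on its inclusion. The mean log2 difference was -0.489 ± 0.0826 (SD, n = 5 libraries) over all reads and -0.0513 ± 0.0968 (SD, n = 3) over reads of 100 kb or more, smaller than its spread. In the pooled long-pulse libraries the slow share was 82.6% of 207 forks on reads under 30 kb, 40.8% from 30 to 50 kb, 21.3% from 50 to 75 kb, 16.0% from 75 to 100 kb and 15.2% of 1701 forks from 100 kb. The share levelled off at the long end, where 20.0% of forks were slow in the control, 16.5% in replicate 1 and 12.8% in replicate 2.

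**Figure D5:**
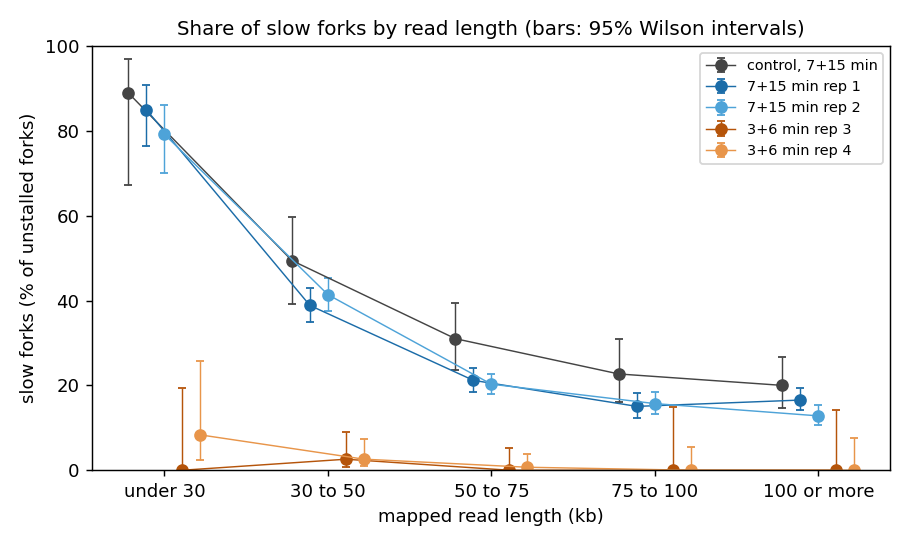
Slow forks as percent of complete unstalled forks in 5 classes of mapped read length (kb) for each of the 5 libraries, with 95% Wilson intervals. In the 3 libraries with 7 and 15 min pulses the share falls from 79.2 to 88.9% on reads under 30 kb to 12.8 to 20.0% on reads of 100 kb or more, and it stays under 9% in the other two.

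The deposited analogue fractions of 3 of the 4 columns differed in 1 direction in all 5 libraries, with 2 and 6 members behind the short-pulse signs. Each fork carries 4 fractions of thymidine positions, and the sources used here do not name the analogue or segment behind each, so they are called by column. The fraction of column 14, which correlated with BrdU segment length across forks (Spearman's rho 0.410 over 30573 forks, which share libraries), had medians of 0.660, 0.720 and 0.712 in members of the control and replicates 1 and 2, against 0.775, 0.807 and 0.805. Its difference over 5 libraries was -0.146 ± 0.0841 (SD, n = 5), lower in 5 of 5, with an exact sign-flip p of 0.062 and an adjusted p of 0.175. That p is no support apart from the rule, because the BrdU segment is part of the track that the rule cuts. With BrdU segments of 4 to 8 kb in both classes, the difference was -0.0210 ± 0.00660 over the 3 long-pulse libraries, against -0.0984 ± 0.0152 over all lengths. With the lowest rate quartile of each library as the slow class, it was -0.0623 ± 0.0500 over 5 libraries and lower in 4 of 5.

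Column 12 was lower as well, at 0.867, 0.876 and 0.882 against 0.892, 0.902 and 0.907. This was -0.0252 ± 0.000840 over the 3 libraries and -0.0138 ± 0.000678 with EdU segments of 3 to 6 kb in both classes. Column 13 was higher in members, by 0.00889 ± 0.000222 over the 3 libraries, from 0.0189, 0.0231 and 0.0233 in members and 0.00980, 0.0145 and 0.0143 in other forks. With BrdU segments of 4 to 8 kb in both classes this was 0.00296 ± 0.00199, and its rho with BrdU segment length was -0.273. With the lowest rate quartile it was 0.00462 ± 0.00684 over 5 libraries, higher in 4 of 5, against 0.0365 ± 0.0399 for members. Column 11 had no common sign in the 3 long-pulse libraries, with differences from -0.00159 to 0.00198. Over 5 libraries columns 12 and 13 each had 1 sign throughout, with an exact sign-flip p of 0.062 and an adjusted p of 0.175. Column 12 had a rho of 0.275 with EdU segment length. Both columns thus moved with a segment of the track that the rule cuts, and these p-values are no support apart from the rule.

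Single molecules give the scale of the class. The slowest member was in replicate 1, on the leading strand of a read of 112 kb with 3 forks at chr3R:30387980-30390114 (dm6), within Fer2LCH, the ferritin light chain gene. Its track of 2.14 kb comprised 0.720 kb of EdU, a gap of 0.361 kb and 1.05 kb of BrdU, a rate of 0.0970 kb per min with a stall score of 0.0346. The slowest of the control was at chrX:13951650-13954553 in mamo, a zinc finger transcription factor gene, with a track of 2.90 kb and 0.132 kb per min. In replicate 2 it was at chr3L:4362293-4365279 in Cip4, a gene for an F-BAR protein of the cell cortex, with a track of 2.99 kb and 0.136 kb per min. Each of these tracks had at least 14.4 kb of read ahead of it. Nearest below the threshold were a fork at chr2R:8071768-8082719 in lig, an RNA-binding protein gene, in the control (0.498 kb per min), one at chr3R:13844474-13855472 beside CG14362 in replicate 1 (track 10.999 kb) and one at chr2R:19817485-19828482 beside Toll-7, a Toll family receptor gene, in replicate 2 (track 10.998 kb). The control fork had 6.91 kb of EdU and 1.62 kb of BrdU, whereas the fork beside CG14362 had 5.54 and 4.72 kb.

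The 8 members from the short pulses had tracks of 2.77 to 4.48 kb. The 2 of replicate 3 lay at chrX:23395832-23399436, at 0.401 kb per min, and at chr3R:31274087-31278570 near ppk24, a sodium channel family gene, at 0.498 kb per min. The 6 of replicate 4 ran from 0.307 kb per min, at chr2R:3769145-3771909, to 0.439 kb per min, at chr2L:7455786-7459734 in Gr28b, a gustatory receptor gene. All but 1 of the 8 had less than 2 kb of BrdU, and 5 of them were read from the lagging strand. With HU, 24 forks lay on the arms, 6 were complete, 3 of those were unstalled and 2 were slow, too few for any comparison.

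The forks of the 4.0.3 version of the caller had slow shares near those of 4.0.1 in the libraries that held both, at 26.3 against 24.1% in replicate 1 and 20.7 against 23.3% in replicate 2. In replicates 3 and 4, all forks came from 4.0.3.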

How the data were processed

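Forks of 5 untreated libraries were read from fork tables that the authors deposited per library and direction. The dm6 build, SAMtools 1.10 and minimap2 2.24 are named in the submitters' processing notes, and per the file headers calls came from DNAscent 4.0.1 or 4.0.3. The deposited tables give coordinates and lengths in bp of the track and its segments, 4 values per fork that the authors give as a fraction, and the authors' stall score, with codes below 0 for forks without one. Origin, termination and analogue segment calls came from the deposited coordinate files. Depth was 1836 to 12745 forks on the arms per library.

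Rates are track length over total labelling time. Shares or medians of slow and other forks were compared within libraries with two-sided exact sign-flip tests over the libraries, adjusted by Benjamini-Hochberg over 14 measures. The pulse schemes were set side by side as a description. The tests were also run on simulated data. Because 8 members came from the short pulses, values over the 3 libraries with at least 50 members were added after the data were seen. Genes are from the RefSeq table for Release 6 plus ISO1 MT, the release of dm6 (13922 protein-coding genes). The regions beside the centromeres were 2L from 22000000, 2R to 5500000, 3L from 23000000, 3R to 4200000 and X from 22500000. Named regions are the 10 tiles of 10 kb with members of most libraries, then most members, then by position, and per library the slowest member and the one nearest the threshold. Members, lists and measures were chosen with earlier results of these data known. Alternatives changed the rate threshold, end margin, score, distance to calls, read length, pooling, caller version and libraries. No sequence is shown. Analyses ran in Python 3.11.15 (matplotlib 3.10.9, scipy 1.17.1, pandas 2.3.3, numpy 2.4.6).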

Additional observations from a re-analysis of the deposited data

Results flagged for a closer look

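The leading-strand share of members minus that of other unstalled forks had opposite signs under the 2 pulse schemes: it was positive in both 7 and 15 min replicates (mean 8.34 percentage points) and negative in both 3 and 6 min replicates (mean -37.6), a difference of -45.9 points. The difference was not tested, and the short-pulse values rest on 2 and 6 members. The share of members beside the centromeres also had opposite signs, with a mean of -0.577 points in the 7 and 15 min replicates and 16.2 in the 3 and 6 min replicates, a difference of 16.8 points. This difference was not tested either, and it rests on the same 8 forks.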

How the results depend on the processing

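Of 214 alternative values of 14 results, 191 kept their direction and 23 reversed, and no test could pass 0.05 under any. Gene density had a difference of 0 and so no direction, and its 16 alternatives ran from -2.10 to 1.60 genes per 100 kb, 3 above 0, 8 below and 5 at 0. The cause of the reversals was not tested, and several settings, such as reads of 100 kb or more, also dropped the short-pulse libraries. The leading-strand share, -7.82 points over 5 libraries, was 6.69 without replicate 3, 15.0 on reads of 100 kb or more, 1.05 with slow forks under 400 bp per min, 10.2 with forks pooled, 12.0 in the 3 libraries with at least 50 members and 11.05 with the lowest rate quartile of each library, where it was higher in 5 of 5. The leftward share, -2.01, became 2.09 and 2.16 with thresholds of 400 and 600 bp per min and 10.2 for forks over 1 kb from any call. The share with an origin at the EdU end, 4.10, became -2.62 without replicate 3, -9.27 on reads of 100 kb or more, -1.12 under 600 bp per min, -2.29 pooled and -3.12 in the 3 libraries. The X share, 8.59, became -1.91 for forks over 1 kb from any call, still higher in 3 of 5 libraries. The share beside the centromeres, 4.74, became -0.838 without replicate 3, -4.54 for forks over 1 kb from any call, -1.57 pooled and -2.89 in the 3 libraries. Column 11, 0.0200, became -0.000323 on reads of 100 kb or more. Slow forks at the same place, 1.53, became -0.0194 with 10 kb margins, -0.217 with the lowest rate quartile and -2.27 within 5 kb.

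The second fork on the molecule, 52.4, ranged from 35.9 for forks that share no origin call to 81.7 for forks over 1 kb from any call, where 2 libraries gave a value. With one library left out in turn, it ran from 51.8 to 53.6, the scheme difference from -23.0 to -21.9, leading-strand share from -14.6 to 6.69, leftward share from -2.25 to -1.80, terminations from 0.0633 to 4.50, origins from -2.62 to 6.71, log2 read length from -0.512 to -0.460, X share from 0.431 to 13.1, the share beside the centromeres from -0.838 to 7.81, gene density from -0.625 to 0.625, columns 11 to 14 from 0.00506 to 0.0254, -0.0757 to -0.0424, 0.0216 to 0.0434 and -0.161 to -0.109, and slow forks at the same place from 0.407 to 2.75. Without the 2 members of replicate 3 the X share was the lowest of its range. No paired analysis was possible because the schemes compared share no replicate number. Only 8 members limit every value from the short pulses.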
